A study of Mus musculus with 7 samples.

Results

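COP/NFOL/MFOLa is a cluster of cells between oligodendrocyte precursors and mature oligodendrocytes, whose name joins committed oligodendrocyte precursors (COPs), newly formed oligodendrocytes (NFOLs) and the first myelin-forming oligodendrocytes (MFOLs). Its members were the cells that the authors' annotation assigned to it, 111 of the 9291 cells kept after quality control. Oligodendrocyte lineage cells (OLCs) of adult mice were sequenced by droplet-based single-cell RNA sequencing, with 1 library for each of 3 sorted populations. All mice, at P90 (11-14 weeks) and on a mixed C57BL/6-B6CBA background, carried Emx1-Cre and a Sox10-driven reporter that turns from GFP to tdTom where Cre has acted. Control dOLCs, of dorsal origin, were the tdTom+ cells of Emx1-Cre:Sox10-GFP-TdTom animals, and control vOLCs, of ventral origin, were the GFP+ cells of the same genotype. Ectopic vOLCs were the GFP+ cells of animals that also carried Sox10-GFP-DTA, in which diphtheria toxin A removes the lineage where Emx1-Cre is active, so that ventral cells occupy the dorsal territory. Animals of both sexes were used, origin is read from the activity of 1 Cre driver, and the mice pooled in a library are not distinguished in the files. The labels add that another set of sorted cells was discarded by the authors for batch effects.

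Oligodendrocytes form from precursors (OPCs), which divide and carry the receptor tyrosine kinase Pdgfra and the proteoglycan NG2, encoded by Cspg4. A precursor that leaves the cycle passes through the COP and NFOL stages, marked by the receptor Gpr17 and the choline phosphodiesterase Enpp6, before it makes the myelin proteins Mbp, Mag and Mog. These stages last briefly and are rare in adult cortex, and Gpr17 is known to be shut off before myelin is laid down.

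Of the 111 cells, 76 were control dOLCs, 13 control vOLCs and 22 ectopic vOLCs. They made up 1.31% of 5804 cells (95% interval 1.03 to 1.64), 1.41% of 925 cells (0.750 to 2.39) and 0.859% of 2562 cells (0.539 to 1.30) of these libraries. The 3 intervals overlap, and with 1 library per population no test between populations was possible. Intervals are exact binomial (Clopper-Pearson) and reflect counting error alone, since the mice of a pool are not separate samples. Levels are given as CPM, the unique molecules (UMIs) of a gene added up within a cluster of 1 library and scaled to a total of 1000000, and comparisons are log2 ratios of CPM with 95% exact binomial intervals.

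The cells of the cluster were deeply sampled, with medians of 6685.5, 6670 and 6571.5 UMIs per cell in the dorsal, ventral and ectopic libraries. OPCs had medians of 2795, 3454 and 3421.5 UMIs. The cluster summed to 498484, 87147 and 149383 UMIs in the 3 libraries, so that values of control vOLCs are the least precise. Its median of 2414 genes per cell lay close to the limit of 3000 from which the authors removed barcodes, and 44 of its cells (39.6%) had more than 2500 genes, against 9.28% of OPCs. Scrublet, a doublet caller, marked 0 cells of the cluster and 13 of all cells, too few for its threshold to be taken as working, and 1 of the 111 cells was among the highest 6% of scores in its library. Among the kept cells 78 had a barcode that also occurred in another library, 1 of them in the cluster. Markers of other cell types were checked as sums. Over 10 genes each, microglia markers stood at 20.1, 57.4 and 26.8 CPM in the 3 libraries and endothelial and mural markers at 26.1, 22.9 and 26.8 CPM. Astrocyte markers, also 10 genes, were higher, at 766, 872 and 884 CPM, of which S100b, a calcium-binding protein gene that oligodendrocytes express too, made up 590, 677 and 710 CPM. Of the other astrocyte markers Gfap had 0 UMIs in the cluster and Gja1 had 1.

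The 5 genes taken to mark the cluster were Gpr17, Bmp4, Neu4, Tcf7l2 and Enpp6, and 4 of them were highest here among the lineage steps compared. Enpp6 stood at 816, 815 and 1125 CPM in the dorsal, ventral and ectopic libraries, against 12.2 CPM in OPCs, 68.1 in MFOLb and 45.4 in the joined mature clusters MOL5/6a to MOL5/6d (MOL5/6) of control dOLCs. All libraries of the cluster lay above all of OPCs, MFOLb and MOL5/6. Bmp4, a secreted ligand of the bone morphogenetic protein family, reached 231, 677 and 221 CPM, with control vOLCs above the others. It stood at 25.9 CPM in OPCs of control dOLCs and had 0 UMIs in MFOLb of every library. Tcf7l2, a transcription factor of the Wnt pathway, was at 197, 207 and 194 CPM, the most even of the 5. Gpr17 reached 704, 1251 and 422 CPM, above OPCs of the same library (414, 527 and 353 CPM) by log2 ratios of 0.76 (0.59 to 0.94), 1.25 (0.90 to 1.59) and 0.26 (−0.15 to 0.64), the last with an interval that includes 0. Neu4, a sialidase, was the exception over the cluster as a whole. It was lower in the cluster (341, 562 and 455 CPM) than in OPCs (610, 735 and 576 CPM), with log2 ratios of −0.84 (−1.08 to −0.61), −0.39 (−0.85 to 0.05) and −0.34 (−0.72 to 0.02). The medians over all genes in these comparisons were −0.25, −0.28 and −0.51, so that Neu4 lay below the median in control dOLCs, while in the other libraries its interval included the median. The cells were clustered on such genes, so these values describe the cluster and were not tested.

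**Figure D1:**
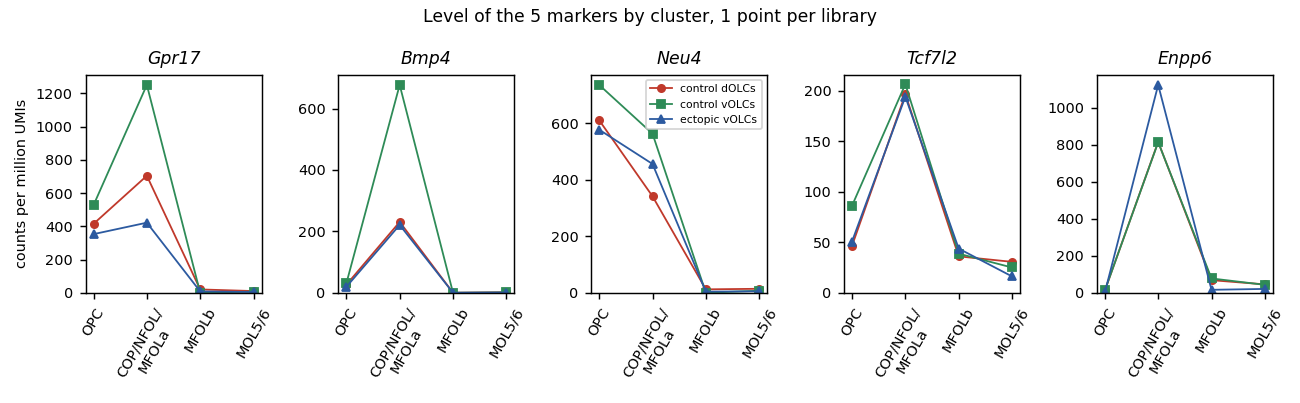
Level of each marker (CPM, linear axes from 0) in OPCs, COP/NFOL/MFOLa, MFOLb and MOL5/6, with 1 point per library joined by lines. Enpp6, Bmp4 and Tcf7l2 peak in COP/NFOL/MFOLa in every library, while Neu4, summed over all cells of a cluster, is highest in OPCs.

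Bmp4 and Enpp6 are shown by sequence because they differed most from OPCs among the 5 markers, at log2 ratios of 3.15 (2.71 to 3.61) and 6.07 (5.55 to 6.63) in control dOLCs. The 250 bases before each gene's RefSeq start are given 5′ to 3′ on the gene's strand in GRCm38.p6, at chr8:46986637-46986886 (plus strand) for Enpp6 and chr14:46390670-46390919 (minus strand) for Bmp4. Capitals mark a SOX core motif (ACAAAG or ACAATG on either strand), the DNA element of the family of Sox10, which drives the reporter. This motif was chosen after the Enpp6 sequence had been seen.
Enpp6: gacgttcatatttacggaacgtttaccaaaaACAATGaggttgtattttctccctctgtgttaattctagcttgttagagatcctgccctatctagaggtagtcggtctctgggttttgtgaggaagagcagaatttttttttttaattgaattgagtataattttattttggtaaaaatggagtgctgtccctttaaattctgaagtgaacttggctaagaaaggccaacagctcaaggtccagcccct
Bmp4: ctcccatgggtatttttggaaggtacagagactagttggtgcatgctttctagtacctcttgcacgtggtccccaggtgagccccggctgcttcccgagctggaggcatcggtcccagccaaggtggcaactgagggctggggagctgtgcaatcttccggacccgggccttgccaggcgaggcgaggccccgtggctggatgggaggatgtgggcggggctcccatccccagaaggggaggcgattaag
Enpp6 held 1 such motif and Bmp4 none, and Bmp4 held 3 E-boxes (CANNTG), the element bound by Olig2, where Enpp6 held none. Across all 32851 windows of this kind 25.2% held the SOX core and 66.2% an E-box. Of the 27 windows of the 17 matched genes among the 20 that stood highest over the other clusters (described further on), 22.2% and 59.3% did, no more than among all windows. A match is only a run of letters and shows no binding.

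Cell by cell, the cluster was not uniform. Of its 111 cells, 58 had a UMI of at least 3 of the 5 markers, 49 had at most 1, and only 4 had 2. The cells with at least 3 were 40 of 76 dorsal (52.6%, 40.8 to 64.2), 7 of 13 ventral (53.8%, 25.1 to 80.8) and 11 of 22 ectopic cells (50.0%, 28.2 to 71.8), and those with at most 1 were 32, 6 and 11. Each population thus held cells of both kinds in similar numbers. The cells with at most 1 marker were not the shallow ones. They had a median of 7620 UMIs against 5271 in the cells with at least 3, and the median doublet score was 0.0940 against 0.0981. A UMI of at least 4 markers was found in 45 cells of the cluster, in 17 of 1304 OPCs and in 1 of 6180 MOL5/6 cells (0.0162%, 0.000410 to 0.0901), whose median depth was 4199 UMIs. The split by number of markers was made after the values were seen and carries no test.

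The 58 cells with at least 3 markers were described by genes outside the markers, since the markers chose them. In control dOLCs, control vOLCs and ectopic vOLCs, the Src family kinase gene Fyn stood at 2041, 2838 and 2129 CPM in these cells and at 36.8, 21.1 and 23.0 CPM in the cells with at most 1 marker, with no overlap between the kinds of cell. The tubulin gene Tuba1a behaved alike, at 6718, 9141 and 7858 CPM against 1273, 1057 and 1289 CPM. Sirt2, a tubulin and histone deacetylase of oligodendrocytes, was at 5862, 5499 and 8402 CPM against 1248, 845 and 1323 CPM. The proteoglycan gene Bcan was at 2404, 1984 and 3185 CPM, with 33 or 42 CPM in the control cells with at most 1 marker and 0 UMIs in those of ectopic vOLCs. None of these genes was used for the split. Astrocyte markers summed to 1564, 1607 and 1728 CPM in the cells with at least 3 markers and to 188, 254 and 276 CPM in those with at most 1, and their part in these levels was not tested.

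The 49 cells with at most 1 marker held the myelin genes at high levels. Mal, a proteolipid of compact myelin, stood at 10359, 11136 and 11508 CPM in the 3 libraries, against 595, 151 and 272 CPM in the cells with at least 3. Mog was at 3814, 3994 and 4396 CPM against 727, 653 and 784 CPM, and Opalin at 2521, 2113 and 3015 CPM against 302, 176 and 192 CPM. For these 3 genes, named after their values were seen, the libraries of the kinds of cell did not overlap. The 14 MFOL genes together stood at 97118, 95531 and 106272 CPM against 46432, 37894 and 45948 CPM. For Mbp the kinds of cell were closer. It was at 6827, 6086 and 8032 CPM against 6741, 4420 and 6978 CPM, so that the libraries overlapped. Myrf, the transcription factor gene for myelin genes, overlapped as well, at 258, 275 and 242 CPM against 246, 301 and 208 CPM. The 18 genes of mature oligodendrocytes (MOL genes) summed to 34834, 39809.8 and 41116 CPM in the cells with at most 1 marker, below 56189.9, 71083 and 64590.4 CPM in MOL5/6. Igsf8, an immunoglobulin superfamily member, stood at 1015 CPM in these cells of control dOLCs against 231 CPM in the highest other cluster, and Synpr, which encodes the vesicle protein synaptoporin, at 98.2 against 17.4 CPM. In the other libraries Igsf8 was at 549 and 1105 CPM against 213 and 488 CPM.

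**Figure D2:**
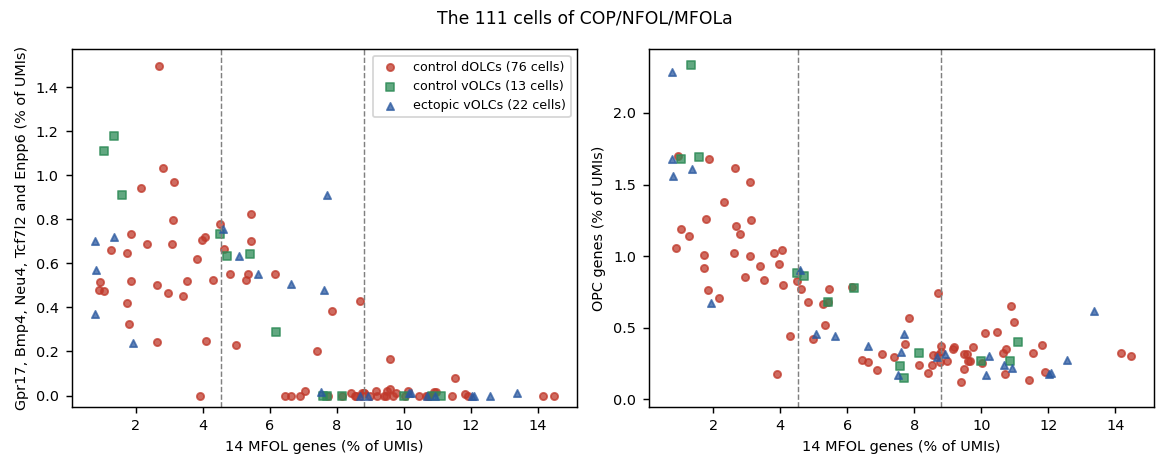
Each point is 1 of the 111 cells, with the percent of its UMIs from 14 MFOL genes on the horizontal axes and from the 5 markers (left) or 18 OPC genes (right) on the vertical axes. Dashed lines at 4.55% and 8.80% cut 3 equal ranges. Marker-bearing cells lie at low MFOL shares and cells of all 3 libraries lie in each range.

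The share of a cell's UMIs that came from 14 MFOL genes ran from 0.763% to 14.5%. Its medians were 6.76%, 6.19% and 7.65% in the dorsal, ventral and ectopic libraries, and each library covered most of this range. Across the 111 cells the share correlated with that of the OPC genes (Pearson's r −0.79, Spearman's rho −0.77) and of the 5 markers (−0.76 and −0.75), and with the UMIs of the cell (0.71 and 0.70). These are shares of the same total and cells share a library, so the coefficients are descriptions. The cells were cut into 3 ranges of 37 cells by the MFOL share. The ranges are stretches of a gradient, not types, and 10 and 13 cells lay within 0.5 percentage points of the cuts. The lowest range held 28, 4 and 5 cells of the respective libraries, the middle range 23, 6 and 8, and the highest 25, 3 and 9. Median depth was 4396, 6885 and 8432 UMIs from the lowest to the highest range.

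Along the gradient Gpr17, Neu4 and Bmp4 were highest in the lowest range, and Enpp6 and Tcf7l2 stayed high into the middle one. Gpr17 was at 2342, 4427 and 1779.8 CPM in the lowest range of control dOLCs, control vOLCs and ectopic vOLCs, at 272, 352 and 447 CPM in the middle range, and at 42.3, 0 and 14.1 CPM in the highest. The levels of the 3 ranges did not overlap across the libraries. Neu4 followed the same order, with 1003, 1752 and 1779.8 CPM in the lowest range and at most 14.1 CPM in the highest. In the lowest range it thus lay above OPCs of the same library (610, 735 and 576 CPM), unlike in the cluster as a whole. Bmp4 was at 768, 1383 and 889.9 CPM in the lowest range and at 94.8, 785 and 258 CPM in the middle one, where control vOLCs stood above the others on 29 UMIs in 6 cells. Enpp6 was at 1394, 1429 and 297 CPM in the lowest range, at 1359, 1083 and 2785 CPM in the middle range, and at 65.9, 0 and 0 CPM in the highest. In ectopic vOLCs its highest level thus lay in the middle range, while in the controls the lower ranges were alike. With 5 and 8 ectopic cells in the lowest and middle ranges, 1 cell can set such a value.

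Other genes placed further steps along the same axis. Pdgfra, the precursor receptor, was highest in the lowest range of the controls, at 117 and 184 CPM, and had 0 UMIs there in ectopic vOLCs. Over all libraries it had 19, 4 and 1 UMIs from the lowest to the highest range, at 112, 15.8 and 3.20 CPM. Sirt2 was highest in the middle range of each library, at 4583, 4196 and 7617 CPM. The cell adhesion gene Nfasc was at 1468 CPM in the lowest range over all libraries, 2432 in the middle and 961 in the highest. Tmem163, a zinc transporter gene, was at 484, 1192 and 388 CPM. Hmgcs1, the hydroxymethylglutaryl-CoA synthase of cholesterol synthesis, was at 88.4, 264 and 647 CPM. Outside the MFOL list and with the libraries pooled, the genes leading the lowest range were Lrp1, Slc27a3, 3110035E14Rik, Nrcam, Sparcl1, Susd5, Meg3 and Csmd1. Lrp1, a lipoprotein receptor gene, had 66 UMIs there and 2 and 1 in the others. The middle range, pooled in the same way, was led by Rgs16, Prom1, Cnksr3, Rnf122, Pdgfa, Mapre2, Ddc and Cdyl. Rgs16 and Prom1 had 0 UMIs in control vOLCs, and 15 of the 26 ectopic Rgs16 UMIs came from 1 cell. Pdgfa, the ligand of the precursor receptor, was at 76.7, 324 and 70.5 CPM. The highest range was led by Tulp3, Bcl2l1, Itgb4, Ptn, Synpr, Inpp5f, Gsn and Endod1, with the actin-severing gelsolin gene Gsn at 377, 1011 and 2807 CPM. Tulp3 had 30 UMIs in this range, and 15 of its UMIs in the cluster came from the 13 control vOLCs.

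**Figure D3:**
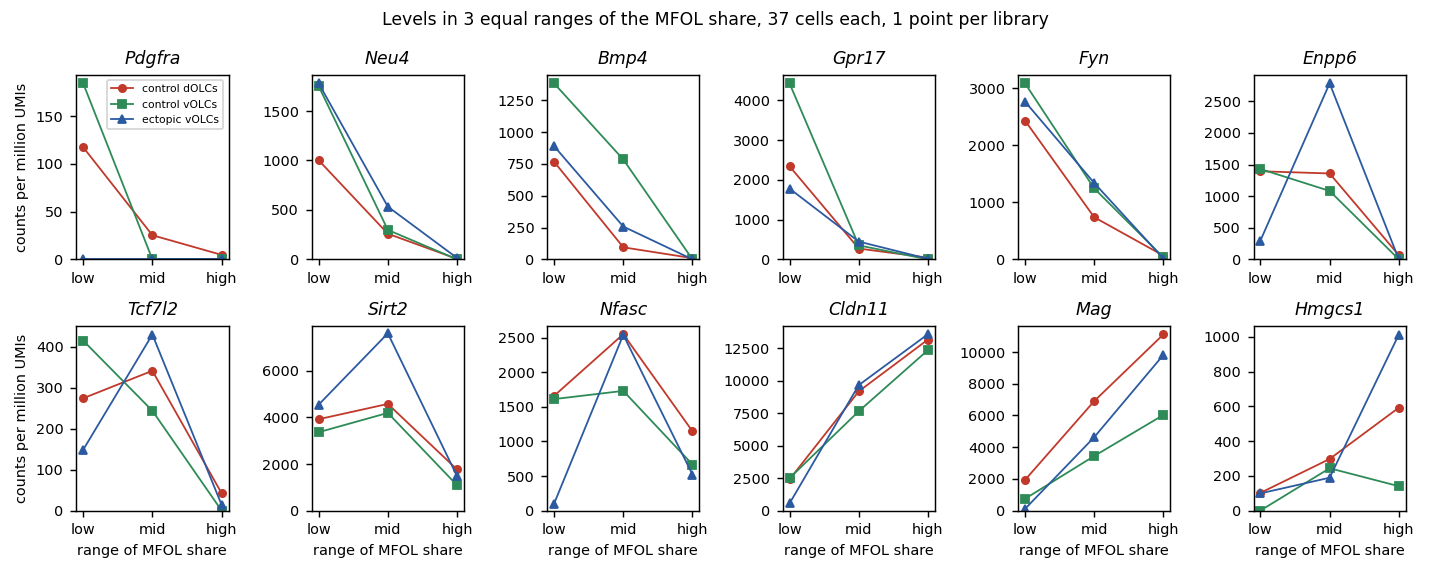
Level of 12 genes (CPM, linear axes from 0) in the low, middle and high ranges of the MFOL share, with 1 point per library and 3 to 28 cells per point. Pdgfra, Neu4, Bmp4, Gpr17 and Fyn are highest in the low range of each library with any UMI, and Sirt2 peaks in the middle. Cldn11 and Mag belong to the MFOL genes that set the ranges, so their order follows from the cut.

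Against OPCs of the same library, the cluster carried little of the precursor genes and high levels of the myelin genes. In control dOLCs Pdgfra stood at 40.1 CPM in the cluster and 1450.04 in OPCs (log2 ratio −5.18, −5.89 to −4.55), Cspg4 at 18.1 and 597 CPM (−5.05, −6.18 to −4.12) and Ptprz1, a receptor phosphatase of precursors, at 116 and 3048 CPM (−4.71, −5.11 to −4.34). Of the 6955 genes past the filter (at least 30 UMIs in the compared cells and a UMI in 10% of the cells of one set), 7.97% were at least 2-fold higher and 18.6% at least 2-fold lower, with a median log2 ratio over all genes of −0.25. Higher genes were 30.0% of those at least 2-fold apart. Scaling by TMM factors instead added 0.34 to every ratio and made this split 48.9%, so ratios to OPCs are read against the median of all genes. Of 18 OPC genes, 15 were at least 2-fold lower and 0 higher, with a median of −3.73. Tnr, a matrix glycoprotein gene (−0.34, −0.54 to −0.15), Gpr37l1 (−0.92) and Olig1 (−0.88) were the 3 past the filter that did not reach 2-fold. Ccnd1, the cyclin of G1, was at 14.0 against 336 CPM (−4.58).

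Transcription factor genes split by stage. Of 29 lineage factors 25 passed the filter, 5 at least 2-fold higher and 9 lower. The Notch effectors Hes1 (−6.41) and Hes5 (−5.09), the differentiation inhibitor Id2 (−4.28) and the precursor factors Sox11 (−4.05), Myt1 (−3.02) and Sox5 (−2.90) were among the lowest, on 1 to 7 UMIs each in the cluster. St18 (2.01, 1.21 to 2.79), Myrf (1.82, 1.47 to 2.16), Nkx6-2 (1.51), Zfp536 (1.39) and Prox1 (1.01) were the 5 higher ones. Sox10 (−0.15, −0.36 to 0.05), the factor that identifies the lineage, and Nkx2-2 (0.02) and Sox4 (0.07) were close to their level in OPCs. These ratios hold for the cluster as a whole, and Sox4 and Nkx2-2 were uneven along the gradient. With the libraries pooled, Sox4 stood at 342, 399 and 22.4 CPM from the lowest to the highest range of the MFOL share. Nkx2-2 stood at 94.3 CPM in the lowest range and 11.8 CPM in the middle one. Of 30 Wnt and BMP pathway genes 13 passed the filter, of which 4 were higher: Bmp4, Tcf7l2, the inhibitory Smad gene Smad7 (2.30, 1.97 to 2.62) and the Wnt pathway formin gene Daam2 (1.09). Bmp7 (−4.30), Id2, Rnf43 (−2.69) and Smad5 (−1.74) were lower.

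Genes of myelin and of cholesterol synthesis were mostly higher, and part of the cytoskeletal genes were higher too. Of 14 MFOL genes 11 were at least 2-fold higher than in OPCs, and of 12 NFOL genes past the filter 11 were, with medians of 2.23 and 2.47. Of 22 cholesterol synthesis genes past the filter, 13 were higher and 0 lower (median 1.12), among them Cyp51 (2.20), Hmgcs1 (2.04) and Idi1 (1.96). The summed level of 23 such genes was 2646, 2238 and 2945 CPM in the 3 libraries of the cluster. Genes for the lipids of myelin included the fatty acid elongase Elovl7 (2.60), the acyl-CoA synthetase Acsl3 (2.03), the ceramide galactosyltransferase Ugt8a (2.01) and the hydroxylase Fa2h (2.00), 6 of 19 in all being higher and 0 lower. Of 27 cytoskeletal genes past the filter 9 were higher and 5 lower (median 0.32). Over all genes 7.97% were higher and 18.6% lower, so the lower ones were near the share of all genes. Among the cytoskeletal genes Map1b (2.63), Cnp (2.58), Fyn (2.45) and Sirt2 (2.29) were higher, while Dpysl3 (−4.73) and the actin-sequestering Tmsb10 (−2.38) were lower. Apoe was at 1951.9 CPM in the cluster and 11178 CPM in OPCs. Astrocyte markers summed to 766 CPM in the cluster and 2274 CPM in OPCs of control dOLCs, and neuron markers to 80.2 and 1166 CPM; their part in these ratios was not tested.

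The next named step, MFOLb, differed from the cluster in the early genes and in genes of mature cells. In control dOLCs 9.69% of 4601 genes were at least 2-fold higher in COP/NFOL/MFOLa and 7.54% lower, 446 and 347 genes. The split turned in ectopic vOLCs, at 193 higher and 258 lower, and with cells thinned to 1000 UMIs, at 97 and 117. All 9 COP genes and all 11 NFOL genes past the filter were higher, with Fyn at 887 against 50.0 CPM (log2 ratio 4.15, 3.57 to 4.79), Sox4, a SoxC transcription factor gene, at 249 against 18.0 CPM (3.79) and Nfasc at 1725 against 282 CPM (2.61). Of 14 MOL genes past the filter, 11 were lower, among them Hapln2 (−2.28, −2.73 to −1.85), Il33 (−1.85), Apod (−1.60), Car2 (−1.56) and transferrin, Trf (−1.30). Of 13 MFOL genes 2 were higher, Ctps (3.25), the CTP synthase, and Cldn11 (1.09, 1.02 to 1.16), and Gjb1, a connexin gene, was lower (−1.14). Matrix and adhesion genes were higher in 13 of 20 and lower in 2. MFOLb had more astrocyte marker counts than the cluster. Summed over 10 astrocyte markers it stood at 5122, 6346 and 4035 CPM in the 3 libraries against 766, 872 and 884 CPM in the cluster, with Slc1a2, the glial glutamate transporter gene, at 1217 against 12.0 CPM in control dOLCs. The part of these in the ratios was not tested.

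MOL5/6, added as a reference for that reason after the data were seen, had 478 CPM of astrocyte markers in control dOLCs. Against it 12.9% of 6530 genes were at least 2-fold higher in the cluster and 5.39% lower, with a median of 0.13. The same groups stood apart: 9 of 10 COP genes and 12 of 12 NFOL genes past the filter were higher, and 12 of 15 MOL genes were lower, with a median of −1.61. Il33 was at 166 against 711 CPM (−2.09, −2.42 to −1.78) and Car2, carbonic anhydrase 2, at 1685 against 5751 CPM (−1.77). The cholesterol genes had a median of 0.67, and 6 of 22 were higher and 0 lower.

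Which genes stood out here from every other cluster was asked within control dOLCs. Of 3330 genes with enough UMIs in the cluster, 68 were at least 2-fold above the highest other cluster. The first was Rassf10, of the Ras association domain family, at 110 CPM against 2.32 CPM in MOL1, on 55 UMIs in 19 of 76 cells. It was at 80.3 CPM in control vOLCs and 73.6 CPM in ectopic vOLCs, against 5.07 and 3.98 CPM in their highest other clusters. Next came the kinesin gene Kif19a (90.3 against 4.95 CPM), the unnamed transcript 9530059O14Rik (459 against 44.1 CPM) and Bmp4 (231 against 25.9 CPM). Genes of intracellular signalling followed, with the phosphoinositide 3-kinase subunit gene Pik3r3 at 122, the guanine exchange factor gene Rasgef1b at 329 and the cofilin phosphatase gene Ssh3 at 96.3 CPM, against 17.0, 47.9 and 14.2 CPM in their highest other clusters. The others of the first 20 were Frmd4a, Parvb, Rnf122, Fyn, Ctps, Tcf7l2, Mpzl1, Ust, Mycl, Man1c1, Thbs3, Nfasc and Pdcd4. Of these 20, all were above the highest other cluster in control vOLCs and in ectopic vOLCs as well, where cycling OPCs were left out. In the cells with at least 3 markers 9530059O14Rik reached 968, 1029.6 and 1088 CPM and was found in 95% of the control dOLCs. In control dOLCs Thbs3, Ctps and Parvb were among the leading genes of the cells with at most 1 marker too. In control vOLCs Ctps stood at 84.5 CPM in such cells. It was at 126 CPM in the highest other cluster when cycling OPCs (3 cells there) were counted.

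**Figure D4:**
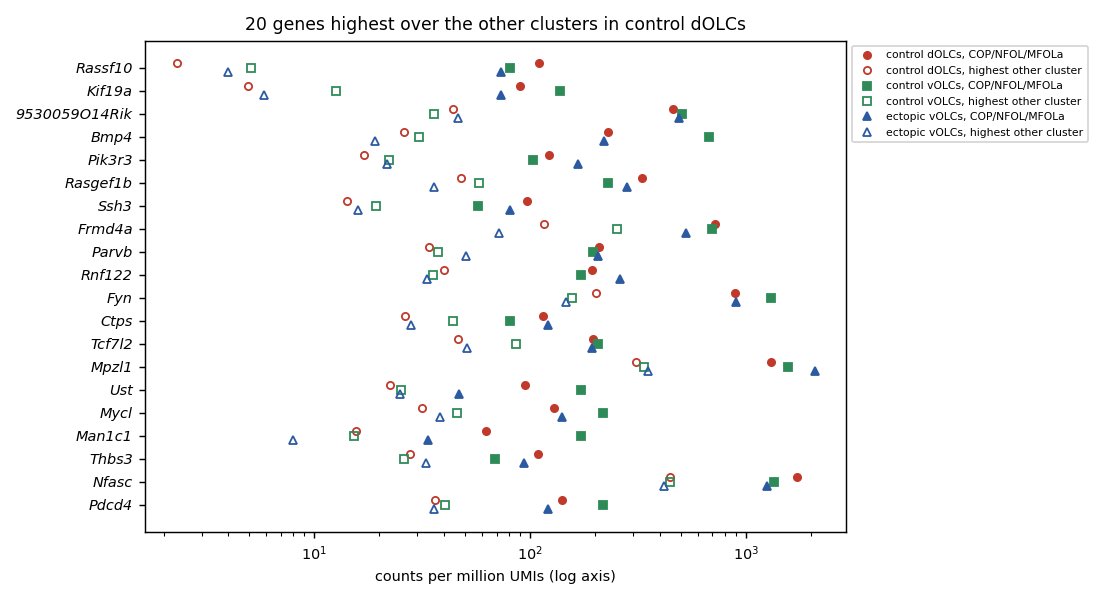
Level (CPM, log axis) of the 20 genes that stood highest over the other clusters in control dOLCs. Filled symbols are COP/NFOL/MFOLa and open symbols the highest other cluster of the same library, without cycling OPCs in control vOLCs and ectopic vOLCs. Filled lie right of open in all 3 libraries for each gene.

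Genes lowest in the cluster, among 197 expressed at 300 CPM or more in every other cluster, differed little. The calmodulin gene Calm2 was at 237 CPM against 446 in OPCs, the lowest other cluster (log2 ratio −0.91). The adhesion gene Hepacam was at 225 against 389 CPM (−0.79). S100a16, Hint1, Rpl24, Prnp, Rps10, Gpm6b, Pcsk1n and Cox6c followed, between −0.62 and −0.36, so that no gene of this kind reached 2-fold.

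Between populations, few list members were 2-fold apart in ectopic vOLCs and control dOLCs, and 3 COP and 3 OPC genes were lower than in control vOLCs. Comparing ectopic vOLCs with control dOLCs, which asks whether ventral cells in dorsal territory resemble the cells they replaced, 1.31% of 3273 genes were at least 2-fold higher and 6.23% lower in ectopic vOLCs, with a median log2 ratio of −0.03. Of these 43 and 204 genes, 33 and 86 had an interval that left out 0. With no filter beyond 1 UMI the direction of the split turned, at 1416 higher and 1037 lower. Of 13 MFOL genes past the filter 0 were 2-fold apart, of 11 NFOL genes 0 and of 19 cholesterol genes 0, with medians of 0.08, −0.02 and 0.03. Of the 5 markers Enpp6 was at 0.46 (0.19 to 0.72), Neu4 at 0.42 (−0.01 to 0.83) and Gpr17 at −0.74 (−1.15 to −0.35). These intervals treat UMIs as independent and leave out the spread between cells. Enpp6 was found in 8 of 22 ectopic cells and 39 of 76 control dOLCs, Neu4 in 10 and 38 and Gpr17 in 12 and 46. Of 168 ectopic Enpp6 UMIs, 41 came from 1 cell. Cells in the highest MFOL range were 25 of 76 control dOLCs, 9 of 22 ectopic vOLCs and 3 of 13 control vOLCs. The part of this in these ratios and in those to control vOLCs was not tested. Comparing with control vOLCs, 2.89% of 1213 genes were higher and 3.3% lower. Higher genes were 46.7% of these, and TMM factors, which added 0.18, made this 67.4%, while with no filter beyond 1 UMI it was 32.6%. Of 8 COP genes past the filter 3 were lower (median −0.80), namely Gpr17, Bmp4 and Pak4, and of 7 OPC genes 3 were, Tnr, Matn4 and Ptprz1 (median −0.65), against a median of −0.01 over all genes. Of 7 cholesterol genes 2 were higher (median 0.54), and 0 of 12 MFOL and 0 of 7 NFOL genes were 2-fold apart. Gpr17 (−1.57, −2.04 to −1.11) and Bmp4 (−1.62, −2.28 to −0.98) had the lower level in the ectopic library, but 45 of the 109 Gpr17 UMIs and 18 of the 59 Bmp4 UMIs of control vOLCs came from 1 cell each.

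Genes furthest apart were taken from those whose interval against control dOLCs left out 0 and whose sign was the same against control vOLCs, 114 higher and 152 lower in ectopic vOLCs (3.48% and 4.64% of 3273 genes). Pdzd8, which encodes a lipid transfer protein of endoplasmic reticulum contacts, was found in 36 of 76 dorsal cells, 5 of 13 ventral controls and 1 of 22 ectopic cells, at 96.3, 68.8 and 6.69 CPM (log2 ratio to control dOLCs −3.85, −9.18 to −1.30). Cycs, the cytochrome c gene, was found in 39, 6 and 3 cells, at 120, 149 and 20.1 CPM (−2.58, −4.90 to −0.97). Tssc4, Dcps, Ids, Olfml1, Zranb1, Ptp4a2 and Dusp7 also stood among the 10 lowest, each on 1 or 2 UMIs in ectopic vOLCs. In control vOLCs they had 1 to 8 UMIs, and Zranb1 had 1 UMI in each ventral library. Of these genes only Olfml1 and Ptp4a2 had an interval against control vOLCs that left out 0. Abhd16a, a phosphatidylserine lipase gene, was found in 17 of 22 ectopic cells, 31 of 76 control dOLCs and 6 of 13 control vOLCs, at 234, 92.3 and 103 CPM (1.34, 0.67 to 2.01). H2-K1, a class I histocompatibility gene, had the highest ratio (2.29, 1.19 to 3.43), at 127 CPM against 26.1 and 11.5 CPM, but 13 of its 19 ectopic UMIs came from 1 cell. Rgs16, a regulator of G protein signalling, was next (2.19), at 174 CPM against 38.1 CPM and 0 UMIs in control vOLCs, with 15 of its 26 ectopic UMIs in 1 of 4 cells. For both of these leading genes 1 cell supplied most of the ectopic UMIs. Mrpl41, Mettl7a1, St7l, Ostc, Thtpa, March5 and As3mt completed the 10.

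Of 23 cytoskeletal genes past the filter, 2 were at least 2-fold lower and 0 higher in ectopic vOLCs than in control dOLCs (median −0.09), a share near that of all genes, and against control vOLCs 1 of 22 was lower and 1 higher. The 2 were Dpysl2 and Tppp. Dpysl2, a microtubule-binding collapsin response mediator gene, stood at 435, 390 and 161 CPM in the dorsal, ventral and ectopic libraries (log2 ratio −1.44, −2.11 to −0.83 to control dOLCs, and −1.28, −2.10 to −0.48 to control vOLCs). Tppp, which encodes a tubulin polymerisation protein, was at 269, 241 and 134 CPM (−1.01, −1.76 to −0.32, and −0.85, −1.81 to 0.11). The lincRNA Neat1 was at 132, 11.5 and 33.5 CPM in the same order, so that both ventral populations were below the dorsal one. Gm26870, found nowhere among the 89 control cells, had 16 UMIs in 5 of the 22 ectopic cells. Dpysl2, Tppp and Gm26870 belong to a list taken over from earlier results on these libraries or to the cytoskeletal list, and their direction is no independent evidence.

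**Figure D5:**
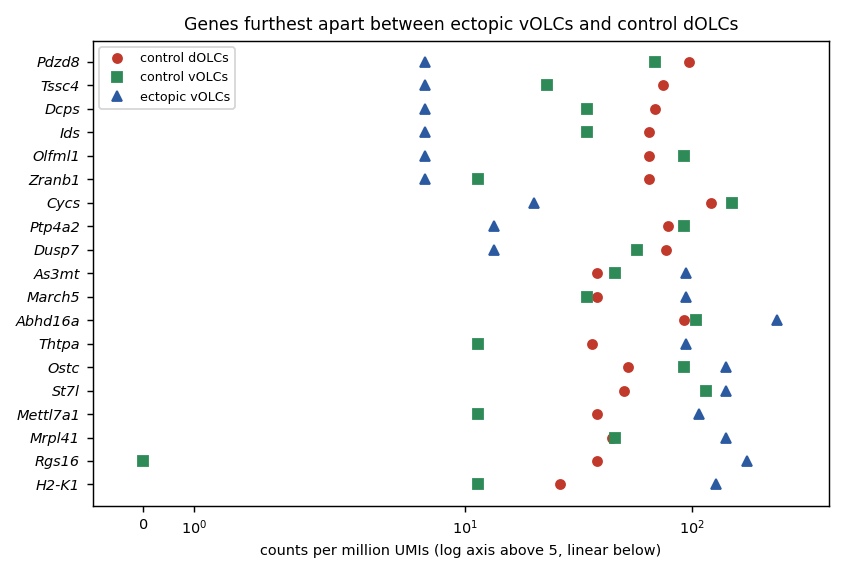
Level (CPM, log axis above 5 and linear below) of genes furthest apart between ectopic vOLCs and control dOLCs, 1 symbol per library. The upper genes, from Pdzd8 to Dusp7, are lowest in ectopic vOLCs and the others highest, with control vOLCs at 0 for Rgs16.

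The control populations differed in a few genes of the gradient. In control vOLCs 4.35% of 3056 genes were at least 2-fold higher than in control dOLCs and 7.26% lower; higher genes were 37.5% of these, and 16.1% with TMM factors, which took 0.24 off every ratio. With no filter beyond 1 UMI the direction turned, at 2535 higher and 677 lower, and among the genes past the filter 98 higher and 53 lower ones had an interval that left out 0. Of 9 COP genes 2 were higher and 0 lower (median 0.72), of 12 OPC genes 2 and 1 (0.50), and of 13 MFOL genes 0 and 1 (−0.34). Bmp4 (1.55, 1.07 to 2.02) and Pak4, a p21-activated kinase gene (1.72, 0.97 to 2.45), were higher. Mag (−1.04, −1.21 to −0.87), the myelin-associated glycoprotein gene, Gsn (−1.22, −1.60 to −0.86) and Hmgcs1 (−1.32, −2.26 to −0.51) were lower. Mag was at 7423 and 3615 CPM in the dorsal and ventral controls and at 6480.0 CPM in ectopic vOLCs, with control vOLCs apart from the others. The control vOLC values rest on 13 cells, 3 of them in the highest MFOL range, against 25 of 76 control dOLCs. The part of this in the ratios was not tested.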

How the data were processed

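Single-cell RNA sequencing libraries of control dOLCs, control vOLCs and ectopic vOLCs were analysed, 1 of each. The 4 single-nucleus samples of neonatal cortex were not analysed here. The authors deposited raw UMI counts for 27998 genes, listed by symbol, and an annotation with the cluster of each kept cell and a percent of mitochondrial counts computed by the authors. The submitters' processing notes name Cell Ranger 2.1.1, Seurat 3 and 4.0 and the mm10 build, while the paper's methods name another Cell Ranger version. The labels place the tissue in motor and cingulate cortex, and the paper also gives neocortex, although 1 sentence of its dissociation text names the corpus callosum. Of the annotation's columns 5 were not used. UMIs of a cell equalled the annotation in 63 of the 111 cells, with a largest difference of 3, and values come from the count table.

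The authors kept barcodes with over 200 and under 3000 genes and at most 15% mitochondrial counts, and no cell was left out here as a doublet. The cluster, its 5 markers and 21 gene lists were chosen with earlier results of these data known, and 303 of 305 listed symbols matched. OPCs leave out cycling cells. Counts were summed over cells and scaled to CPM. Where a group had 0 UMIs, a ratio is a bound from 3 counts. Genes are called apart at 2-fold, with no test, since cells are not replicates and each population is 1 library.

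Genes named were the 5 markers, list members with the most UMIs or past 2-fold, the 20 highest over and 10 lowest under every other cluster, and the 10 highest and 10 lowest in ectopic vOLCs. Genes leading a range or a set of cells, Gm26870 and Neat1 were named after their values were seen. Some genes that this rule or the lists hold are not reported here. The ratios and intervals were tested on simulated counts with counting error alone. Among unchanged genes 3.43% passed 2-fold against OPCs, 1.58% against MFOLb and 4.70% between ectopic vOLCs and control dOLCs. Between ectopic and control vOLCs 2.75% did, and between the controls 7.85%. The simulation left out the spread between cells and the filter on the share of cells with a UMI. Promoter windows and starts came from RefSeq on GRCm38.p6. Tools were scanpy 1.11.5 (Scrublet, expected rate 0.06), scipy 1.17.1 and matplotlib 3.10.9 in Python 3.11.15, and edgeR 4.0.16 (TMM factors) and DESeq2 1.42.0 (size factors) in R 4.3.3. Alternatives were other scalings, dropping the filter, averaging over cells, thinning to 1000 UMIs per cell, at most 10% mitochondrial counts, leaving out the highest Scrublet scores, another denominator for shares, each other library, and, added after the data were seen, MOL5/6 in place of MFOLb.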

Additional observations from a re-analysis of the deposited data

Results flagged for a closer look

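Barcodes that quality control removed held cells with the markers of COP/NFOL/MFOLa, a signal in data outside the comparisons above. Among the 612 barcodes removed for 3000 genes or more, 29 had a UMI of at least 4 of the 5 markers (4.74%, 95% interval 3.20 to 6.73), against 64 of all 9291 kept cells (0.689%), 17 of 1304 OPCs (1.30%) and 1 of 6180 MOL5/6 cells (0.0162%). The removed barcodes had a median of 11456 UMIs, deeper than the 4199 of MOL5/6, which raises the chance of finding a gene. By library they were 19 of 280 in control dOLCs, 4 of 66 in control vOLCs and 6 of 266 in ectopic vOLCs. In these 29 barcodes the 5 markers summed to 3831 CPM, Pdgfra and Cspg4 together stood at 375 CPM and Mog at 1143 CPM. Among the 178 barcodes removed for over 15% mitochondrial counts, 0 had 4 markers, an upper limit of 2.05%. The 29 compare with 45 such cells kept in the cluster. Whether the 29 were doublets was not tested.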

How the results depend on the processing

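Shares of the cluster and the median MFOL share stayed within their intervals under all alternatives run. Numbers of genes at least 2-fold apart depended on the filter: with none beyond 1 UMI they were 4877 against OPCs, 3024 against MFOLb, 2453 between ectopic vOLCs and control dOLCs, 2073 between ectopic and control vOLCs and 3212 between the controls, and with cells thinned to 1000 UMIs, where fewer genes passed, they were 794, 214, 38, 7 and 65. In control vOLCs, with fewer cells, they were 1222 against OPCs and 164 against MFOLb, in ectopic vOLCs 2517 and 451, and with MOL5/6 as reference 1194. The main numbers were 1846, 793, 247, 75 and 355. The summed markers stood at a log2 ratio of 1.05 to OPCs, and at 1.39 with TMM factors, 1.41 with size factors, 1.40 as the mean over cells, 1.28 thinned, 1.34 in control vOLCs, 1.27 in ectopic vOLCs and 1.16 over 3 libraries. Against MFOLb they stood at 4.07, and at 4.51 as the mean over cells, 3.69 thinned, 4.92 in control vOLCs, 5.08 in ectopic vOLCs and 4.49 against MOL5/6. Hmgcs1 against MFOLb reversed in control vOLCs, at −1.30 (−2.44 to −0.21), where MFOLb had 8 cells. The cause was not tested. Ratios of single genes moved beyond their interval 103 times, kept within it 340 times and changed sign 1 time. No paired analysis was possible because each population is 1 library. Values from 13 control vOLCs and 22 ectopic vOLCs rest on few cells, and intervals leave out the spread between cells and between mice.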
